A study of Sus scrofa with 80 samples.

Results

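The coreceptor genes of T cells, CD4, CD8A and CD8B, were followed in the blood of weaned pigs. Every probe set of the porcine array whose only platform gene symbol is one of these 3 names was taken. This gave 4 probe sets of 23999 tested, for 3 genes of 6765. CD4 has 2 probe sets (Ssc.16240.1.S1_a_at and Ssc.16239.1.S1_s_at), CD8A has 1 (Ssc.23489.1.S1_at) and CD8B has 1 (Ssc.23495.1.S2_at). In the RefSeq annotation of the pig, CD8A and CD8B are direct neighbours, while CD4 lies between GPR162 and LAG3.

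CD4 and CD8 sit beside the T cell receptor and bring the kinase LCK to it. CD4 binds MHC class II molecules and marks helper T cells, while CD8 binds MHC class I molecules. CD8 is built either from a pair of alpha chains, made by CD8A, or from an alpha and a beta chain, made by CD8A and CD8B, and the mixed form marks cytotoxic T cells. In pigs the alpha chain alone is also found on natural killer (NK) cells, on part of the gamma-delta T cells and on many activated or memory helper T cells, so CD8A is carried by more cell types than CD8B.

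The study ranked pigs of 35 days by a self-product, by its name a product of paired trait values, and took 5 pigs from each tail for RNA from blood. The traits were CD4+ and CD8+ cells by flow cytometry, 2 cytokines (IFN-alpha, IL-10) and the body weight W35. The 8 trait pairs were CD4+ with W35, CD8+ with W35, IFN-alpha with W35, IL-10 with W35, CD4+ with IFN-alpha, CD4+ with IL-10, CD8+ with IFN-alpha and CD8+ with IL-10, each with 5 low and 5 high arrays (80 arrays in 16 groups). No treatment or genotype enters the groups, and neither the formula of the self-product nor the pigs' trait values were used, so a high group is not known to be a group with many CD4+ or CD8+ cells.

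Values within a trait pair are deposited log2 expression from robust multi-array averaging (RMA), and differences are the high mean minus the low mean. Values over the pigs and the order of the 16 groups use the deposited values of all 80 arrays after quantile normalization together. Each pair holds 10 different pigs, but the same pigs recur between pairs. Taking arrays that correlate above 0.99 as one pig gave 29 pigs for the 80 arrays, of which 21 served in 2 or more pairs and 13 carried a low label in one pair and a high label in another. Whether the arrays of one pig are a single hybridisation is not given in the labels. With pigs in common, results of different pairs are not independent and are set side by side only. The hybridisation controls bioB and bioC divided the arrays into a lower class (26 arrays, 11 pigs) and a higher class (54 arrays, 18 pigs), which the labels do not name. The blood carried T cell transcripts throughout, with mean levels over the pigs of 9.03 for CD3D, 9.41 for CD3E, 9.94 for CD3G and 9.86 for CD247, the chains of the CD3 complex.

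CD8A and CD8B gave clear signals, and the CD4 probe sets did not. CD8A averaged 9.69 ± 0.91 over the pigs (SD, n = 29) and CD8B 7.61 ± 0.69. The CD4 probe sets averaged 4.16 ± 0.29 and 3.56 ± 0.27, below the median of 5.61 over all probe set means. Signals of different probe sets are not amounts of transcript, and the deposited values carry no detection call, so a low signal does not show that CD4 mRNA was absent from blood.

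The CD4 probe sets also did not follow each other from pig to pig. Their correlation over 29 pigs was r = -0.161 (permutation p = 0.401) with a rank correlation of -0.118 (permutation p = 0.544). Without the 2 pigs farthest from the median r was -0.0464, and within the classes of hybridisation control it was -0.122 (higher) and -0.319 (lower). CD4 results below therefore name the probe set where they differ. The first-named probe set, with the higher mean, is the one meant by CD4 alone.

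**Figure D1:**
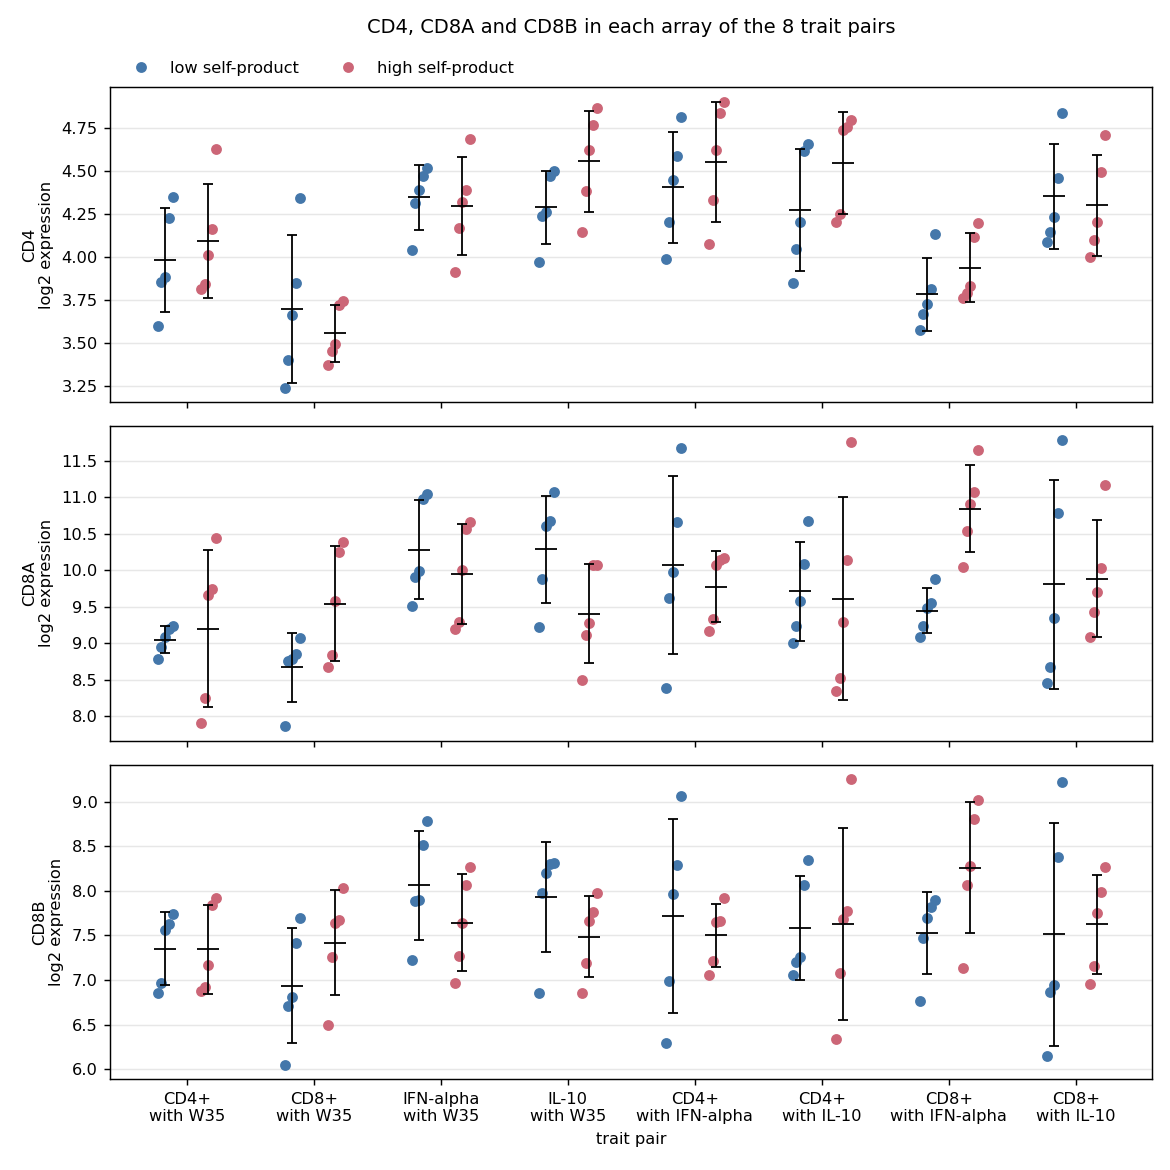
Log2 expression of CD4 (Ssc.16240.1.S1_a_at), CD8A and CD8B (vertical axes) in each array of the 8 trait pairs (horizontal axis). Points are arrays of 5 low and 5 high pigs per pair, the long bars are group means and the whiskers are the SD; in the CD8+ with IFN-alpha pair the 5 high CD8A points, from 10.04 to 11.65, lie above the 5 low points, from 9.08 to 9.88.

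The question in each pair was whether blood expression of the coreceptors differed between both tails of the self-product. Of the 32 tests of the members (4 probe sets in 8 pairs), 0 passed an adjusted p of 0.05 in limma, 3 had an unadjusted p under 0.05 and 1 had high and low arrays that did not overlap. All 3 concerned CD8A. The share of all probe sets with an unadjusted limma p under 0.05 ran from 1.98% in CD8+ with IFN-alpha to 8.93% in CD4+ with W35. The share of all probe sets without overlap was 1.64% in CD4+ with W35, 0.408% in CD8+ with W35, 0.638% in IFN-alpha with W35 and 0.533% in IL-10 with W35. It was 0.504% in CD4+ with IFN-alpha, 1.12% in CD4+ with IL-10, 0.283% in CD8+ with IFN-alpha and 0.296% in CD8+ with IL-10. Over all 23999 probe sets 0 passed the adjusted threshold in any pair, so each difference below is a measured value and not a called change. Bulk blood cannot tell apart more cells that carry CD8A and more CD8A RNA per cell.

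CD8A, the alpha chain, differed most in the pair of CD8+ with IFN-alpha. The low arrays measured 9.08, 9.23, 9.48, 9.55 and 9.88. The high arrays measured 10.04, 10.54, 10.91, 11.07 and 11.65. Every high array was above every low array, which held for 0.283% of all probe sets in this pair. The high mean was higher by 1.40 (SE 0.27, 95% interval 0.80 to 1.99), a ratio of 2.63-fold. Its limma p of 2.67e-04 was the smallest of all 23999 probe sets of the pair, where 1.98% had an unadjusted p under 0.05, and its adjusted p was 1.0. Leaving out each array in turn gave differences of 1.20 to 1.60. Within the higher class of hybridisation control, which held 4 low and 4 high arrays, the difference was 1.29; the lower class held 1 array of each group and gave no value.

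CD8B, the beta chain, lay the same way in that pair with overlapping groups. Its low arrays measured 6.76, 7.47, 7.70, 7.82 and 7.90. Its high arrays measured 7.14, 8.06, 8.28, 8.81 and 9.01. So 4 of 5 high arrays were above every low array and the remaining one was below 4 of the low arrays. The high mean was higher by 0.73 (SE 0.34, 95% interval -0.01 to 1.47), with a limma p of 0.0532 and an adjusted p of 1.0, and by 0.67 in the higher class.

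Other T cell genes were also higher in the high group of this pair, none past the adjusted threshold. All 4 chains of the CD3 complex were higher, with a median difference of 0.47, against 52.5% of all 6765 genes and a median of 0.01. CD3E was higher by 0.62 (SE 0.26, adjusted p = 1.0) and CD3G by 0.53 (SE 0.26). All 10 measured genes of coreceptor signalling were higher with a median of 0.37, among them LCK, the kinase that the coreceptors carry, by 0.48 (SE 0.26), and FYN, its close relative, by 0.43 (SE 0.23). The cytotoxic and NK cell list had 9 of 10 measured genes higher, with a median of 0.44, including GZMH, a granzyme, by 0.87 (SE 0.33), FASLG, the ligand of the death receptor FAS, by 0.55 (SE 0.20), and KLRK1, an activating receptor also known as NKG2D, by 0.89 (SE 0.47).

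The CD3 complex mean separated the groups less than CD8A did. It ran from 9.12 to 9.73 (median 9.44) in the low arrays and from 9.23 to 10.52 (median 9.81) in the high arrays, so the groups overlapped. By this mean 4 of 5 high arrays were above every low array, as for CD8B. With this mean as a covariate the CD8A difference was 1.06 (adjusted p = 1.0) and the CD8B difference 0.32.

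Genes of myeloid cells and platelets lay lower in the high group. Of the 6 measured genes each for monocytes, neutrophils and platelets, 5 were lower in each list, with medians of -0.38, -0.35 and -0.26. The neutrophil mean ran from 8.46 to 9.93 in the low and from 8.27 to 9.23 in the high arrays, the monocyte mean from 7.03 to 9.25 and from 6.96 to 8.41, and the platelet mean from 8.89 to 9.88 and from 8.36 to 9.86. The lowest value of the whole table was 2.15, so this scale cannot show a marker at 0. With the erythroid and neutrophil means as covariates the CD8A difference was 1.56 and the CD8B difference 0.97; the part of monocytes and platelets was not tested.

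CD8A was also higher in the high group of CD8+ with W35. The low arrays measured 7.86, 8.76, 8.79, 8.86 and 9.07. The high arrays measured 8.68, 8.83, 9.57, 10.24 and 10.39. Here 3 of 5 high arrays were above every low array and the other 2 lay among them. The difference was 0.88 (SE 0.36, 95% interval 0.09 to 1.66, 1.83-fold), with a limma p of 0.0328, in a pair where 3.43% of all probe sets had an unadjusted p under 0.05, and an adjusted p of 1.0.

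This difference was not alike in both classes of hybridisation control. It was 0.06 in the higher class (2 low, 3 high arrays) and 1.85 in the lower class (3 low, 2 high arrays), and the difference between the classes was not tested. Without 1 array it ranged from 0.66 to 1.09, and its unadjusted p was above 0.05 when low replicate 5 (0.67), high replicate 1 (0.66), high replicate 2 (0.70) or high replicate 3 (0.87) was left out.

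CD8B in CD8+ with W35 measured 6.05, 6.71, 6.81, 7.41 and 7.70 in the low arrays. The high arrays measured 6.49, 7.26, 7.64, 7.67 and 8.03. The groups overlapped, with a difference of 0.49 (SE 0.34, adjusted p = 1.0). Within classes it was -0.41 (higher) and 1.32 (lower), and without low replicate 5 the whole-pair value was 0.26.

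The T cell genes around CD8A did not lie the same way in this pair. None of the 4 CD3 chains was higher in the high group (median -0.24), and 4 of 10 genes of coreceptor signalling were (median -0.25). Of all genes 51.4% were higher in this pair, with a median of 0.01. The cytotoxic and NK cell list had 8 of 10 genes higher, with a median of 0.13, led by CCL5, a chemokine that T and NK cells release, at 1.22 (SE 0.26) and KLRK1 at 1.14 (SE 0.33). LEF1 and SATB1, nuclear regulators of T cell development, were lower by 1.30 (SE 0.36) and 0.95 (SE 0.40) on the log2 scale. No gene of these lists passed the adjusted threshold. None of the 6 measured erythroid or the 6 platelet genes and 1 of the 6 monocyte genes was higher; the erythroid mean ran from 7.34 to 9.20 in the low and from 6.54 to 8.58 in the high arrays, the platelet mean from 8.75 to 10.06 and from 8.27 to 9.43, and the monocyte mean from 7.32 to 8.68 and from 7.11 to 8.90. With the erythroid and neutrophil means as covariates the CD8A difference was 1.03; the part of platelets and monocytes was not tested.

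In IL-10 with W35 the CD8 chains lay the other way. The low CD8A arrays measured 9.23, 9.87, 10.60, 10.67 and 11.07. The high arrays measured 8.49, 9.11, 9.27, 10.08 and 10.08. The groups overlapped, with 2 of 5 high arrays below every low array. The difference was -0.88 (SE 0.39, 95% interval -1.73 to -0.03, 0.54-fold), with a limma p of 0.0432, in a pair where 3.19% of all probe sets had an unadjusted p under 0.05, and an adjusted p of 1.0. Within the higher class (4 low, 5 high arrays) it was -0.79, and without 1 array it ranged from -1.15 to -0.65, with an unadjusted p above 0.05 in 6 of 10 such fits.

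CD8B in IL-10 with W35 measured 6.85, 7.97, 8.21, 8.30 and 8.31 in the low arrays. The high arrays measured 6.85, 7.19, 7.66, 7.77 and 7.98. The groups overlapped, and the lowest low array was level with the lowest high array. The difference was -0.44 (SE 0.30, adjusted p = 1.0); without low replicate 2, that lowest array, it was -0.71 (adjusted p = 0.946).

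Cytotoxic genes in this pair included members that lay with CD8A. CCL5 differed by -1.03 (SE 0.35), GZMH by -1.01 (SE 0.39) and GNLY, which encodes granulysin, by -0.74 (SE 0.28), although 6 of the 10 genes of the list were higher and its median was 0.02. The CD3 complex had 3 of 4 chains higher (median 0.22) and coreceptor signalling 8 of 10 genes higher (median 0.12). Of all genes 51.9% were higher in this pair, with a median of 0.01. With the CD3 complex mean as a covariate the CD8A difference was -1.11. The erythroid mean ran from 6.88 to 9.47 in the low and from 7.97 to 9.66 in the high arrays, with 5 of 6 genes higher, and with the erythroid and neutrophil means as covariates the CD8A difference was -1.16.

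The other 5 pairs showed CD8A differences smaller than their errors. In CD4+ with W35 the CD8A levels were 9.05 ± 0.19 (low) and 9.20 ± 1.08 (high; SD, n = 5 each). They differed by 0.15 (SE 0.42), in a pair where 8.93% of all probe sets had an unadjusted p under 0.05. In IFN-alpha with W35 the difference was -0.34 (SE 0.38; 4.24% of all probe sets), and in CD4+ with IFN-alpha it was -0.29 (SE 0.50; 3.87%). It was -0.10 (SE 0.59; 6.18%) in CD4+ with IL-10 and 0.08 (SE 0.63; 2.53%) in CD8+ with IL-10. The intervals of these 5 pairs reach from -1.40 to 1.45, so a change as large as that measured in CD8+ with W35 could not be told from none in several of them.

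CD8B gave differences near those of CD8A in these pairs, all within their errors except in IFN-alpha with W35. There the low arrays measured 7.23, 7.88, 7.89, 8.52 and 8.78 and the high arrays 6.97, 7.27, 7.64, 8.07 and 8.27, a difference of -0.42 (SE 0.32, adjusted p = 1.0) between overlapping groups. The difference was -0.01 (SE 0.26) in CD4+ with W35, -0.22 (SE 0.44) in CD4+ with IFN-alpha, 0.04 (SE 0.47) in CD4+ with IL-10 and 0.11 (SE 0.53) in CD8+ with IL-10. Of these pairs, CD4+ with IL-10 and CD8+ with IL-10 had the widest CD8A groups: the high arrays of the former ran from 8.34 to 11.76 and the low arrays of the latter from 8.46 to 11.78.

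One pig supplied the highest CD8A value in 4 pairs. It measured 11.67 in the low group of CD4+ with IFN-alpha, 11.76 in the high group of CD4+ with IL-10, 11.65 in the high group of CD8+ with IFN-alpha and 11.78 in the low group of CD8+ with IL-10. Its CD8B values were 9.06, 9.26, 9.01 and 9.22 in the same order, the highest of each pair. The same animal thus sat in the low group of 2 of these pairs and in the high group of the other two.

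**Figure D2:**
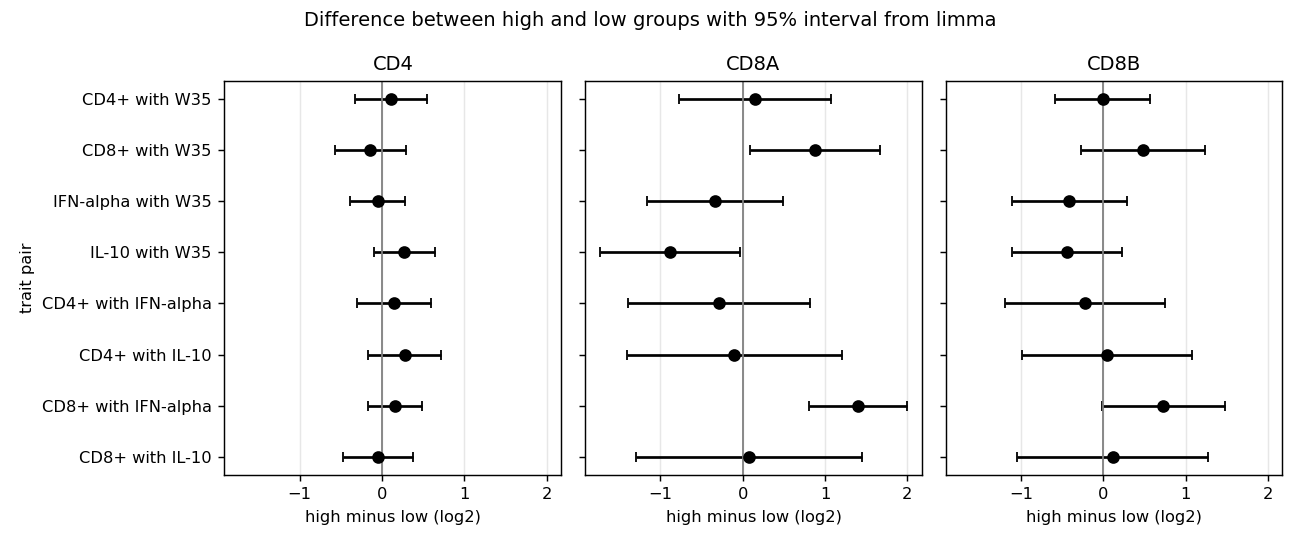
Difference between the high and low group means of CD4, CD8A and CD8B (horizontal axes, log2) in each trait pair (vertical axis), with the 95% interval from limma. The CD8A interval lies above 0 in CD8+ with IFN-alpha (0.80 to 1.99) and CD8+ with W35 (0.09 to 1.66) and below 0 in IL-10 with W35 (-1.73 to -0.03), before adjustment over all probe sets.

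CD4 showed no difference that stood out from its spread. In its 16 tests (2 probe sets, 8 pairs) 0 had an unadjusted p under 0.05 in limma. Of all probe sets 1.98% to 8.93% did in a pair, so with 16 tests a count of 0 is near that share. The smallest limma p of CD4 was 0.141, and the differences lay between -0.23 and 0.28. That smallest p came from IL-10 with W35, where the low arrays measured 3.97, 4.24, 4.26, 4.47 and 4.50. The high arrays of that pair measured 4.14, 4.38, 4.62, 4.77 and 4.87. The groups overlapped, with 3 of 5 high arrays above every low array, and the difference was 0.27 (SE 0.17, adjusted p = 1.0).

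In the 3 pairs that include CD4+ cells, CD4 was slightly higher in the high group by the first-named probe set, within the spread of the arrays. This direction was not particular to them, since CD4 was also higher in IL-10 with W35 (0.27) and CD8+ with IFN-alpha (0.16). In CD4+ with W35, CD4 levels were 3.98 ± 0.30 (low) and 4.09 ± 0.33 (high; SD, n = 5 each), which differed by 0.11 (SE 0.20), while the other probe set, Ssc.16239.1.S1_s_at, measured 3.66 ± 0.24 and 3.43 ± 0.20, a difference of -0.23 (SE 0.16). In CD4+ with IFN-alpha the CD4 difference was 0.15 (SE 0.20) and in CD4+ with IL-10 it was 0.28 (SE 0.20), with 0.12 (SE 0.19) and 0.16 (SE 0.17) by the other probe set. In CD8+ with W35 and CD8+ with IFN-alpha it was -0.14 (SE 0.20) and 0.16 (SE 0.15), with -0.12 (SE 0.16) and -0.08 (SE 0.20) by the other probe set. CD4 differed by -0.05 (SE 0.15) in IFN-alpha with W35 and by -0.05 (SE 0.20) in CD8+ with IL-10. The other probe set gave 0.05 (SE 0.21) and 9.02e-04 (SE 0.19) there.

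Across the 16 groups the order of the levels followed no clear step. For this order all 80 arrays were quantile normalized together, since the deposited values sit on a separate scale in each pair. CD8A was highest in the high group of CD8+ with IFN-alpha (10.85 ± 0.61, SD, n = 5), followed by the low groups of IFN-alpha with W35 (10.34 ± 0.64), IL-10 with W35 (10.21 ± 0.80) and CD4+ with IFN-alpha (10.18 ± 1.11). It was lowest in the low groups of CD8+ with W35 (8.87 ± 0.38) and CD4+ with W35 (9.12 ± 0.28). All 15 steps between neighbours in this order were smaller than the smaller of both groups' SDs.

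CD8B had the same 4 groups on top, from 8.24 ± 0.77 in the high group of CD8+ with IFN-alpha to 7.78 ± 1.06 in the low group of CD4+ with IFN-alpha. Its lowest mean was also in the low group of CD8+ with W35, at 7.17 ± 0.58, and all 15 of its steps were within the smaller SD. CD4 ran from 4.59 ± 0.25 in the high group of IL-10 with W35 to 3.81 ± 0.16 in the low group of CD8+ with IFN-alpha, with 14 of 15 steps within the smaller SD. Groups share pigs, so these orders were not tested.

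The pigs themselves differed widely in the CD8 chains. On the common scale CD8A ran from 8.22 to 11.61 over the 29 pigs with a median of 9.53, a 10.5-fold range, and CD8B from 6.28 to 9.01 with a median of 7.67, a 6.65-fold range. The SD over pigs of CD8A, 0.91, was larger than that of 98.1% of all probe sets and that of CD8B, 0.69, larger than that of 92.8%, against a median SD of 0.34. Among probe sets with a mean at or above the median, as CD8A and CD8B have and CD4 has not, the median SD was 0.417. The arrays of one pig differed by an SD of only 0.11 for CD8A and 0.08 for CD8B, and arrays were joined into a pig by their likeness, so this is no independent measure of repeatability. CD4 varied by an SD of 0.29 over pigs, larger than 36.8% of all probe sets, against 0.15 among arrays of one pig. The pigs were picked from the tails of the self-products, so this spread need not be that of the herd.

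CD8A and CD8B were correlated from pig to pig. Their correlation over 29 pigs was r = 0.805, with a rank correlation of 0.80, and both had a permutation p of 1e-05, the smallest that 100000 resamples can give (3e-05 adjusted over the 3 combinations of the genes). Without the 2 pigs farthest from the CD8A median r was 0.749. It was 0.768 in the higher class of hybridisation control (18 pigs) and 0.885 in the lower class (11 pigs). Among the 10 pigs with the most CD8A signal, 8 were among the 10 with the most CD8B signal, and the same pig ranked first for both.

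CD4 did not follow either CD8 chain by its own probe set. Its correlation was -0.166 with CD8A (rank correlation -0.159) and -0.163 with CD8B (rank correlation -0.106), with adjusted permutation p-values of 0.399 for both r and 0.584 for both rank correlations. Without the 2 pigs farthest from the CD4 median these were -0.254 and -0.230. Within the higher class they were 0.01 and 0.10 and within the lower class -0.496 and -0.515. The CD4 signal is low and its probe sets differ, so these values bear on the probe set and were not tested for the CD4 transcript.

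**Figure D3:**
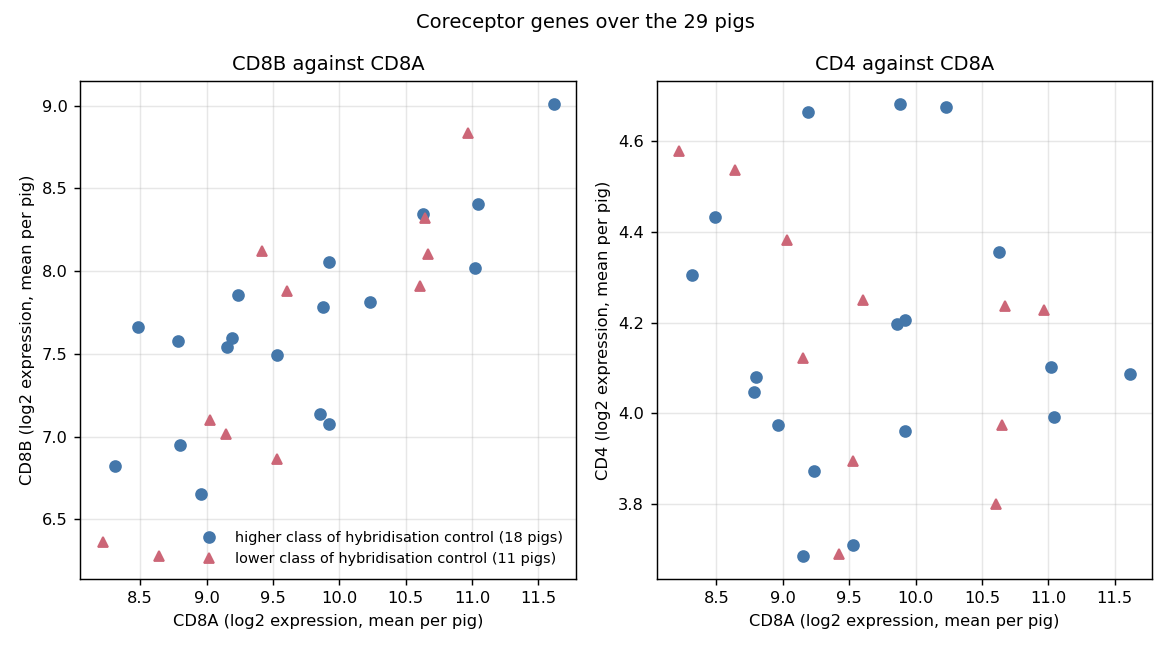
CD8B (left) and CD4 (right) against CD8A in the 29 pigs, as means of each pig's arrays on the scale common to all 80 arrays (log2 expression on all axes). Circles are the 18 pigs of the higher and triangles the 11 pigs of the lower class of hybridisation control; CD8B climbs with CD8A in both classes (r = 0.805 over all pigs) and CD4 shows no such trend (r = -0.166).

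The level of each coreceptor was then set against the means of 13 gene lists for the cells and pathway around it, over the 29 pigs. By Pearson's r 6 of the 39 combinations had an adjusted permutation p under 0.05, 3 with CD8A, 3 with CD8B and 0 with CD4. By the rank correlation 6 did too, 3 with CD8A, 2 with CD8B and 1 with CD4. CD8A correlated with the cytotoxic and NK cell genes at r = 0.684 (rank correlation 0.653, permutation p = 4e-05, adjusted p = 0.00156), with coreceptor signalling at 0.606 (0.627, p = 4.5e-04, adjusted p = 0.00877) and with the CD3 complex at 0.563 (0.522, p = 0.00114, adjusted p = 0.0111). With the same lists over the 29 pigs CD8B gave 0.594 (0.622, permutation p = 7.2e-04, adjusted p = 0.00936), 0.522 (0.480, p = 0.00361, adjusted p = 0.0235) and 0.544 (0.548, p = 0.00211, adjusted p = 0.0165).

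These relations were weaker without the pigs at the ends. Leaving out such pigs narrows the range of the coreceptor, which by itself lowers r, so whether the relations rest on them was not tested. Without the 2 pigs farthest from the median of the coreceptor, CD8A gave 0.588, 0.513 and 0.452 with the 3 lists and CD8B gave 0.483, 0.318 and 0.327, and by r 0 of 39 combinations passed the adjusted threshold. CD8B with coreceptor signalling also lost its call with values centred on each array's median (r = 0.460, permutation p = 0.0115, adjusted p = 0.0560), and by its rank correlation its adjusted p was 0.0502. Within the higher class the 3 values were 0.674, 0.625 and 0.709 for CD8A and 0.608, 0.428 and 0.506 for CD8B. Within the lower class they were 0.759, 0.633 and 0.357 for CD8A and 0.597, 0.712 and 0.577 for CD8B. The signs were the same in both classes, with 2 of 39 combinations by r past the adjusted threshold in the higher and 0 in the lower class.

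Within these lists the chains and genes differed. Over the pigs CD8A correlated with CD3G at 0.777 and with CD3D at 0.612 but with CD3E at 0.361 and with CD247 at 0.309. LCK gave 0.572 with CD8A and 0.672 with CD8B. Among the cytotoxic genes FASLG gave 0.714 with CD8A and 0.651 with CD8B, GNLY 0.690 and 0.508, and GZMH 0.618 and 0.565. The FASLG signal was low, with a mean of 3.73 over the pigs, below the median of 5.61 over all probe set means. TYROBP and HCST, adaptors of activating receptors, had values below 0, at -0.587 and -0.213 with CD8A and -0.456 and -0.0623 with CD8B. The other 5 genes of that list lay between 0.264 and 0.609 with CD8A. These single-gene values are descriptions over the 29 pigs and were not tested.

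The list of MHC class I genes also held TAP1, TAPBP and PSMB8, whose products are not ligands of CD8. Its mean correlated with CD8B at 0.440 (permutation p = 0.0157, adjusted p = 0.0875) and with CD8A at 0.329 (adjusted p = 0.279). The list of MHC class II genes also held SLA-DMA, SLA-DMB, SLA-DOA, CD74 and CIITA, whose products are not ligands of CD4. Its mean correlated with CD4 at -0.418 (permutation p = 0.0234, adjusted p = 0.102). The rank correlation of that combination over the 29 pigs was -0.518 (permutation p = 0.00476, adjusted p = 0.0309), past the threshold. Without the 2 pigs farthest from the CD4 median its r was -0.398, and within the classes -0.245 (higher) and -0.689 (lower). By the second CD4 probe set it was not tested. Helper T cell genes correlated with CD4 at 0.425 (permutation p = 0.0214, adjusted p = 0.102), the largest positive r of CD4 with any of the 13 lists. The rank correlation with these genes was 0.342 (permutation p = 0.0691, adjusted p = 0.245), not past the threshold. Their r was 0.340 without the 2 farthest pigs, and 0.525 (higher) and 0.220 (lower) within the classes. Mean signals of these genes ran from 3.93 for IL2 to 9.99 for IL16, so some were as low as CD4. CD8A and CD8B gave r between -0.324 and 0.317 with the lists of B cells (1 gene measured), monocytes, neutrophils, erythroid cells, platelets and plasmacytoid dendritic cells, none past the adjusted threshold.

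**Figure D4:**
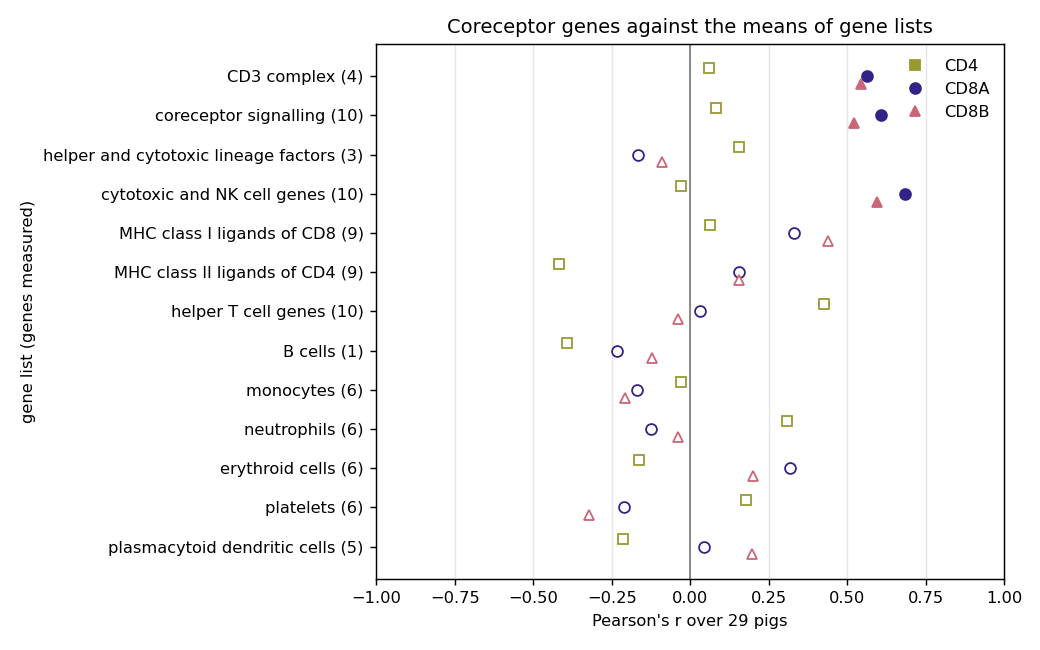
Pearson's r over 29 pigs (horizontal axis) of CD4 (squares), CD8A (circles) and CD8B (triangles) with the mean of each of 13 gene lists (vertical axis, number of measured genes in brackets). Filled symbols have an adjusted permutation p of r under 0.05; the 6 filled symbols are CD8A and CD8B with the CD3 complex, coreceptor signalling, and cytotoxic and NK cell genes, from 0.522 to 0.684.

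The pathway genes were also counted in the 5 pairs where CD8A differed by less than its error, and 0 of them passed the adjusted threshold in limma. All differences given as medians are high minus low on the log2 scale. In CD4+ with W35, where 47.0% of all 6765 genes were higher (median -0.02), 1 of 4 CD3 chains was higher (median -0.27), 3 of 10 genes of coreceptor signalling (median -0.20) and 8 of the 10 measured cytotoxic or NK genes (median 0.36). Of the latter 5 were higher with an unadjusted limma p under 0.05. Of all 6765 genes 185 were higher and 406 lower at that p, and 8.93% of all probe sets passed it. Beside these lists 1 of 6 erythroid genes (median -1.21), 0 of 6 monocyte genes (median -0.82) and 1 of 6 platelet genes (median -0.56) were higher.

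In IFN-alpha with W35, where 47.9% of all genes were higher (median -0.01), none of the CD3 chains was (median -0.24), against 7 of 10 genes of coreceptor signalling (median 0.0587) and 3 of 10 cytotoxic or NK genes (median -0.0654). Beside them 6 of 6 platelet genes (median 0.61) and 0 of 6 monocyte genes (median -0.28) were higher. In CD4+ with IFN-alpha the share of all genes was 54.1% (median 0.02), with 4 of 4 CD3 chains (median 0.36), 8 of 10 genes of coreceptor signalling (median 0.43) and 3 of 10 cytotoxic or NK genes (median -0.17) higher. There 6 of 6 platelet genes (median 0.75) and 5 of 6 erythroid genes (median 0.62) were higher too.

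In CD4+ with IL-10, 48.9% of all genes were higher (median -0.01), with 2 of 4 CD3 chains, 4 of 10 genes of coreceptor signalling (median -0.12) and 5 of 10 cytotoxic or NK genes (median 0.0349). Neutrophil genes were higher in 6 of 6 (median 0.66) and monocyte genes in 0 of 6 (median -0.72). In CD8+ with IL-10 the share of all genes was 51.5% (median 0.01), with 4 of 4 CD3 chains (median 0.30), 10 of 10 genes of coreceptor signalling (median 0.17) and 5 of 10 cytotoxic or NK genes (median -0.0870). Monocyte genes (median 0.68) and platelet genes (median 0.41) were higher in 6 of 6 each. The part of these other cell lists in the counts was not tested. Since the pairs share pigs, these counts are not independent of each other.

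The genes most like each coreceptor over the 29 pigs were ranked by Pearson's r among 4937 genes with a mean at or above the median. For CD8A these were PRKCH, the eta form of protein kinase C, at 0.833, NCAPD3, a condensin subunit, at 0.830, DNMT1, the maintenance DNA methyltransferase, at 0.811, GANAB, a glucosidase subunit of the endoplasmic reticulum, at 0.800, and CKS1B, a regulatory partner of cyclin-dependent kinases, at 0.788. CD8B took place 4 in the ranking for CD8A, and CD8A took place 1 in that for CD8B. Among the lowest values for CD8A was that of LOC100624648 at -0.730.

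For CD8B the most similar genes after CD8A were AIFM1, a mitochondrial oxidoreductase, at 0.800, MCM2, a subunit of the replicative helicase, at 0.794, PPID, a cyclophilin, at 0.759, LSM2, a component of the U6 ribonucleoprotein, at 0.749, and NEK2, a kinase of the centrosome, at 0.745. The lowest were SENP2, a protease of SUMO conjugates, at -0.707 and APPL2, an endosomal adaptor, at -0.682. CD4 had no gene as close: its highest were YDJC at 0.568, ZDHHC15, a palmitoyltransferase, at 0.543, ORMDL3, a regulator of sphingolipid synthesis, at 0.542, NAT10, an RNA acetyltransferase, at 0.530, and XCR1, a chemokine receptor of dendritic cells, at 0.524. Its lowest were LY86, also known as MD-1, at -0.556 and FABP5, a fatty acid-binding protein, at -0.550. CD8A and CD8B stood at places 3547 and 3530 in the ranking for CD4. These genes were picked for their r, so the values are a description.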

How the data were processed

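The series holds 80 array columns from blood RNA of pigs at day 35, measured on Affymetrix porcine arrays. Whether these are 80 separate hybridisations is not given in the labels. The authors deposited log2 expression values per probe set; RMA and limma are named in the submitters' processing notes without versions. The mean of an array varied by 0.0643 or less among arrays of one pair, while pair averages went from 5.65 to 6.07, so values of different pairs were not set on one scale as deposited. The table lists 24123 probe sets, and the 124 controls among them entered no fit. Names came from the platform annotation. Precision is limited by how many arrays a group holds. Columns correlating above 0.99 over all probe sets were taken as one pig; the lowest correlation within a pig was 0.9936 and the highest between pigs 0.9885.

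Each pair was fitted on its 10 arrays with limma 3.58.1 in R 4.3.3, with eBayes and Benjamini-Hochberg adjustment over 23999 probe sets. CD4 stands for its probe set with the higher mean over the pigs. For values over pigs, all arrays were quantile normalized together and averaged per pig; permutation tests were two-sided with 100000 resamples. List means and list counts took 1 probe set per gene. The limma p-values set the difference between the groups against the spread of the arrays within them, moderated over all probe sets. The permutation p-values are for correlations over pigs of all groups together. Genes were named by a rule: the members, the CD3 complex, LCK, CCL5 and a few others, up to 3 list genes per pair with the smallest p, and for each coreceptor the 5 genes with the highest and the 2 with the lowest r. The text gives only some of the list genes, and one of the genes with the lowest r is not reported here. Single values of list genes over the pigs were chosen after they were seen. The members and lists were chosen with earlier results of these data known. Python 3.11.15 and matplotlib 3.10.9 made the plots. Scripts were tested on simulated data. Alternatives are given in the closing section.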

Additional observations from a re-analysis of the deposited data

Results flagged for a closer look

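Of 64 groups of 5 arrays (4 probe sets in 16 groups), 2 held an array far from the others. This share is below the 1 in 20 that chance gives, so the arrays are listed as a description only. CD8A in the low group of CD8+ with W35 had its lowest array, replicate 5, at 7.86, while the nearest of the others measured 8.76; without that array the CD8A difference of the pair was 0.67 in place of 0.88. CD8B in the low group of IL-10 with W35 had its lowest array, replicate 2, at 6.85, while the nearest measured 7.97; without it the CD8B difference was -0.71 in place of -0.44.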

How the results depend on the processing

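Each pair was refitted under another normalization, eBayes settings, array weights, covariates, blocks, filters and without each array. Of the 24 differences of CD4, CD8A and CD8B, 12 kept their direction in every such setting, 12 did not, and 0 passed the adjusted threshold in any. With all 10 arrays of a pair, the CD8A differences kept their direction in CD8+ with IFN-alpha (1.06 to 1.56), CD8+ with W35 (0.83 to 1.18) and IL-10 with W35 (-1.16 to -0.79); the smallest adjusted p of the first was 0.273, with array weights. The causes of the changes below were not tested.

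Fitting the pair again after quantile normalization within it, or of all arrays together, turned CD8B in CD4+ with W35 (0.11 and 0.11) and CD8A in CD4+ with IL-10 (9.47e-04 and 0.00284). Array weights turned CD8B in CD4+ with W35 (0.10), CD8A in CD4+ with IL-10 (0.14), CD8A (-0.18) and CD8B (-0.28) in CD8+ with IL-10, and the second CD4 probe set in CD8+ with W35 (0.0175). The erythroid and neutrophil covariates turned CD4 (-0.13) and CD8B (0.0613) in CD4+ with W35, CD4 in IFN-alpha with W35 (0.0315), CD8A in CD4+ with IL-10 (0.34), and the second CD4 probe set in CD4+ with IFN-alpha (-0.0490), CD4+ with IL-10 (-0.0318), CD8+ with IFN-alpha (0.00675) and CD8+ with IL-10 (-0.0298). The CD3 covariate turned CD4 (-0.13) and CD8B (0.00615) in CD4+ with W35, and CD4 (0.00868), CD8A (-0.21) and CD8B (-0.15) in CD8+ with IL-10. The class of hybridisation control as a block turned CD8B in CD4+ with W35 (0.0311), CD4+ with IL-10 (-0.23) and CD8+ with IL-10 (-0.00341), and the second CD4 probe set in IFN-alpha with W35 (-0.0641). The mean of both CD4 probe sets turned CD4 in CD4+ with W35 (-0.0600) and IFN-alpha with W35 (0.00129), and centring turned the second CD4 probe set in CD8+ with IL-10 (-0.0276).

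Without 1 array, CD4 ran from -0.0249 to 0.20 in CD4+ with W35, -0.26 to 0.0187 in CD8+ with W35, -0.15 to 0.0448 in IFN-alpha with W35 and -0.15 to 0.0693 in CD8+ with IL-10. CD8A ran from -0.16 to 0.47 in CD4+ with W35, -0.71 to 0.11 in CD4+ with IFN-alpha, -0.64 to 0.22 in CD4+ with IL-10 and -0.26 to 0.57 in CD8+ with IL-10. CD8B ran from -0.15 to 0.11, -0.57 to 0.12, -0.37 to 0.36 and -0.23 to 0.54 in the same 4 pairs. The second CD4 probe set ran from -0.0510 to 0.19 in IFN-alpha with W35, -0.00545 to 0.22 in CD4+ with IFN-alpha, -0.18 to 0.0767 in CD8+ with IFN-alpha and -0.13 to 0.11 in CD8+ with IL-10.

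Over all probe sets, 0 passed the adjusted threshold in each pair. This became 8 in CD4+ with IFN-alpha with the erythroid and neutrophil covariates, 25 in CD4+ with IL-10 with the class block and 1 in IL-10 with W35 with array weights. Without 1 array it was 0 to 6 in CD4+ with W35 (6 without low replicate 2, 2 without high replicate 4), 0 to 7 in CD4+ with IFN-alpha (without low replicate 1), 0 to 2 in IL-10 with W35 (without high replicate 5) and 0 to 1 in IFN-alpha with W35 (without low replicate 3). Counts at an unadjusted p under 0.05 went from 474 to as many as 2551 in CD8+ with IFN-alpha and from 1483 to 4596 in CD4+ with IL-10.

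Same-numbered arrays, as deviations from their group means, correlated at -0.544 to 0.365, and in no pair were all 5 over 0.1. In CD4+ with W35 4 of 5 were over 0.1, in CD8+ with IL-10 3 and in CD4+ with IL-10 0. The labels give no pairing, and whether same-numbered arrays share more than a number was not tested. With the replicate block the CD8A difference in CD8+ with IFN-alpha stayed at 1.40 (adjusted p = 1.0), and 0 probe sets passed in each pair. Over the pigs, CD4 with CD8A turned in the higher class (0.0147), and CD4 with CD8B there (0.10) and with the mean of both CD4 probe sets (0.00220). The 6 list combinations past the threshold became 0 without the 2 farthest pigs, 2 in the higher class and 0 in the lower class, which hold fewer pigs. With values centred on each array's median CD8B with coreceptor signalling was no longer past it (0.460, adjusted p = 0.0560).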
